A study of Mus musculus with 20 samples.

Results

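Transcripts of 9 genes were followed in the liver: *Tff3* and 8 genes commonly used to recognise the epithelium of bile ducts, namely *Krt7*, *Krt19*, *Epcam*, *Sox9*, *Spp1*, *Cftr*, *Krt8* and *Krt18*. They were taken as every array probe whose RefSeq accession belongs to 1 of these symbols, which gave 13 probes among 41174, for 9 of the 16535 genes that could be named. *Tff3* was chosen by its rise at the highest dose in these same arrays, so its levels against control are a description and carry no test, whereas the 8 duct genes were chosen for where they are expressed. The livers came from male Muta™Mouse animals (transgenic strain 40.6, which carries a bacterial *lacZ* reporter for mutations), 25 weeks of age, and all were taken 3 days after the last oral gavage. The 4 groups of 5 mice were vehicle controls given olive oil and mice given benzo(a)pyrene (BaP), a polycyclic aromatic hydrocarbon, in olive oil at 25, 50 or 75 mg/kg/day. Each liver RNA, carrying Cyanine 5, shared 1 array with a common reference RNA, a pool from 11 mouse cell lines carrying Cyanine 3, so each value below is a log2 ratio of liver over reference. Dyes were not swapped, and a ratio cannot be set against that of another probe.

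Bile ducts are lined by cholangiocytes, a small share of the cells of a liver, which modify bile by moving chloride, bicarbonate and water. They hold the keratins *Krt7* and *Krt19*, which normal hepatocytes largely lack, and share *Krt8* and *Krt18* with hepatocytes. When the liver is injured, duct cells can multiply in what is called a ductular reaction, and these genes are the usual markers of it in tissue. *Tff3* encodes a small secreted trefoil peptide that is best known from goblet cells of the gut, where it takes part in the repair of mucosal surfaces, and it is also known from biliary epithelium.

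Liver signals were usable on all 20 arrays, with 51.9 to 67.5% of spots well above background. Control replicate 4 stood apart at 67.5%, against 51.9 to 54.3% in the other controls. All 5 mice at 25 mg/kg/day lay at position 2 of their slides and all 5 at 75 mg/kg/day at position 4, while 4 of 5 controls lay at position 1 and 4 of 5 mice at 50 mg/kg/day at position 3, so dose and position on the slide cannot be told apart. The tissue was also checked, since the labels name both liver and lung. All 11 measured hepatocyte markers were well above background on all 20 arrays, while the lung surfactant genes *Sftpc* and *Sftpb* and the lung factor *Nkx2-1* were so on 0 of 20. The other 3 lung markers on the array were so on 16 (*Sftpa1*, a surfactant gene), 5 (*Scgb1a1*) and 1 (*Ager*) of 20.

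Of the 9 genes, 8 had a probe above the presence limit, meaning a liver signal brighter than the range of the array's negative controls on 4 or more of the 5 arrays of some group. *Cftr*, the chloride channel of the duct cell's outer membrane, was below it with both probes, which were well above background on 1 and 0 of the 20 arrays, so it gave no usable level or fold. *Sox9* had 3 probes, of which 2 were present and the third was well above background on 1 array. *Krt8* had 2 present probes. *Krt7* was dim, well above background on 16 of 20 arrays, and the other 6 measured duct genes and *Tff3* were so on all 20.

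*Tff3* was the member that stood highest at 75 mg/kg/day relative to its controls. Its log2 ratio was 2.52, 2.47, 3.71, 3.05 and 2.34 in the 5 controls and 4.51, 4.30, 4.38, 3.23 and 4.74 in the 5 mice at 75 mg/kg/day. Of these, 4 of 5 lay above all controls, and replicate 19, at 3.23, lay below control replicate 3. Values were 1.89, 2.91, 3.61, 2.17 and 2.06 at 25 mg/kg/day and 3.37, 3.64, 2.44, 2.89 and 3.53 at 50 mg/kg/day. In the lowest dose group 3 of 5 mice lay below all controls, and in the middle one none lay outside them. The group means were 2.82 ± 0.57 in controls, 2.53 ± 0.72 at 25, 3.17 ± 0.50 at 50 and 4.23 ± 0.58 at 75 mg/kg/day (SD, n = 5). At 75 mg/kg/day the log2 change was 1.41 with an SE of 0.34, a 2.66-fold higher ratio. In liver RNA from whole tissue, more RNA per cell and more cells of the type that makes it cannot be told apart.

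**Figure D1:**
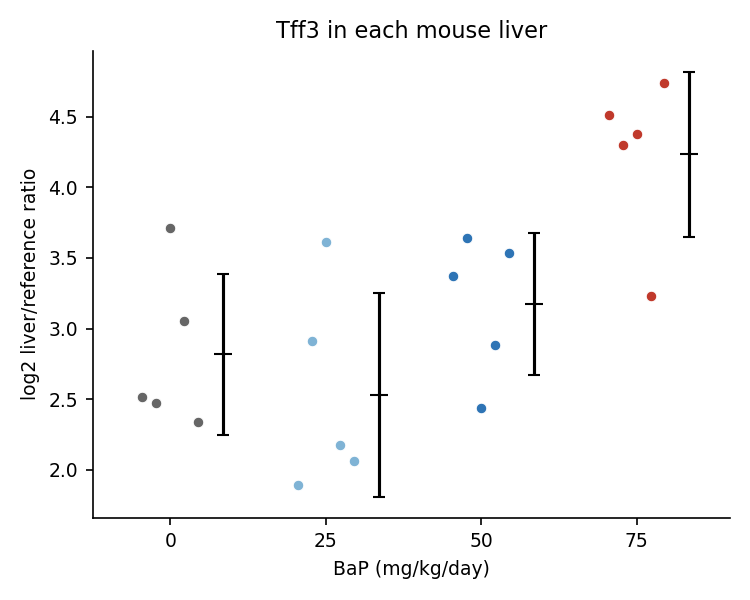
*Tff3* log2 liver/reference ratio (vertical axis) in each of 20 arrays by BaP dose in mg/kg/day (horizontal axis). Points are single mice and bars are the mean ± SD of 5. The mice at 75 mg/kg/day lie between 3.23 and 4.74, and 4 of 5 are above the highest control at 3.71.

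The step of *Tff3* between the low doses is not among the contrasts with control that the study listed, and it was tested. The arrays of both doses were part of the study's fit, so the test is not fully independent of the choice. The log2 change from 25 to 50 mg/kg/day was 0.64 (95% interval -0.07 to 1.36), and it did not pass the threshold (limma, unadjusted p = 0.074, adjusted p = 0.646). Over all 27346 present probes 0% passed in this contrast, and 8.29% had an unadjusted p under 0.05. *Tff3* varied more between arrays of 1 group than nearly all transcripts did. Its SD within groups was 0.60 log2 units, larger than that of 97.8% of the present probes, whose median was 0.22. With 1 array a mouse and 1 *Tff3* spot an array, this SD holds differences between mice together with those of labeling, hybridization and spot. These cannot be told apart.

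The same values can be described within slides. On the 3 slides that carried both a control and a mouse at 75 mg/kg/day the difference in log2 ratio of *Tff3* was 1.25, 2.04 and 1.99, and with the slide as a block in the model the log2 change was 1.58. These values come from the arrays on which *Tff3* was chosen and carry no test.

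The reference channel of *Tff3* was not constant. The same reference RNA was put on every array, yet in the signals processed by the scanner software its level at the *Tff3* spot was 1.24 log2 units higher at 75 mg/kg/day than in controls (mean -3.66 against -4.90 relative to the 75th percentile of each array). This difference was larger than that of 99.97% of the present probes, whose median was -0.03. In the liver channel the level was 1.73 log2 units higher (mean 1.87 against 0.14). Within groups both channels rose and fell together, with Pearson's r = 0.95 and Spearman's rho = 0.94 over 20 arrays (permutation test within groups, 100000 resamples, two-sided, p = 1e-05 for both, the smallest that these permutations can give). Leaving out the 2 arrays farthest from the median left r = 0.93, and removing slide means gave r = 0.97. Over all present probes the median of this r was 0.41, and 99.1% of probes had a lower one.

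**Figure D2:**
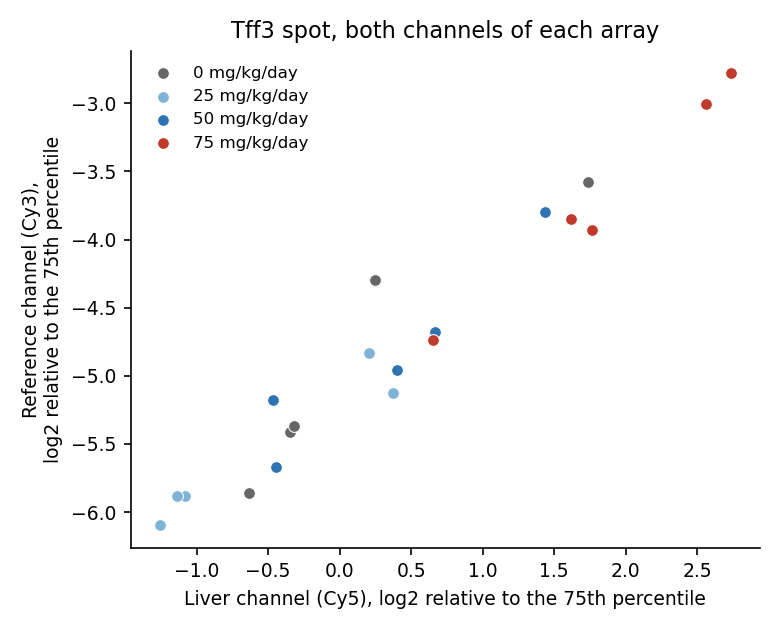
*Tff3* signal in the liver channel (horizontal axis) and in the reference channel (vertical axis) of each of 20 arrays, as scanner-processed log2 signal relative to the 75th percentile of that channel. Points are arrays coloured by dose. The reference level climbs with the liver level, with r = 0.95 within groups.

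The reference signal was small, between 1.91% and 4.31% of the liver signal of the same spot, and was well above background on 18 of 20 arrays. The size of the *Tff3* change differed with the processing. With the scanner-processed signals of both channels the log2 change at 75 mg/kg/day was 0.48, where the liver difference was 1.73 and the reference difference 1.24. The liver channel alone gave 1.56 after quantile normalization and 1.73 from the processed signals. Medians without background correction gave 1.59 and the deposited LOWESS ratios gave 1.66, both from the 2 channels. Why the reference channel followed the liver channel was not tested.

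The other secreted trefoil peptides showed smaller differences. The log2 change of *Tff1* at the highest dose was 0.09 (SE 0.12, adjusted p = 0.842). *Tff2*, well above background on 9 of 20 arrays, had 0.41 (SE 0.17, adjusted p = 0.361), with 3 of 5 mice above all controls. Neither was called at any dose by limma, where at most 0.135% of all present probes were.

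None of the 7 measured duct genes was called against control at any dose. A call needed an adjusted p under 0.05 by limma, with Benjamini-Hochberg adjustment over all present probes, and a fold over 1.5. At 75 mg/kg/day 0 of 7 passed, where 0.135% of all present probes did (36 higher and 1 lower), and at 25 and 50 mg/kg/day 0 of 7 passed, where 0% of all probes did. At an unadjusted p under 0.05 there was 1 of 7 at each dose, *Epcam* at 25 and 75 mg/kg/day and *Krt8* at 50 mg/kg/day, against 7.81%, 6.7% and 11.2% of all probes at 25, 50 and 75 mg/kg/day. From 25 to 50 mg/kg/day 0 of 7 were called and 0 had an unadjusted p under 0.05. The linear trend with dose was passed by 0 of 7, at any unadjusted p under 0.05 by 0 of 7 as well, while 0.157% of all probes passed it and 8.58% had an unadjusted p under 0.05.

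The duct gene with the largest difference at the highest dose was *Epcam*, with a log2 change of -0.29, and the median over the 7 genes was 0.06 log2 units, where the median over all probes was 0.00. At 75 mg/kg/day 4 of 7 were higher and 3 lower. For 6 of 7 genes the whole 95% interval lay within a 1.5-fold change in either direction, *Sox9* being the exception. At 25 and 50 mg/kg/day this held for 5 of 7, with *Epcam* and *Sox9* outside at 25 and *Sox9* and *Krt8* outside at 50 mg/kg/day.

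**Figure D3:**
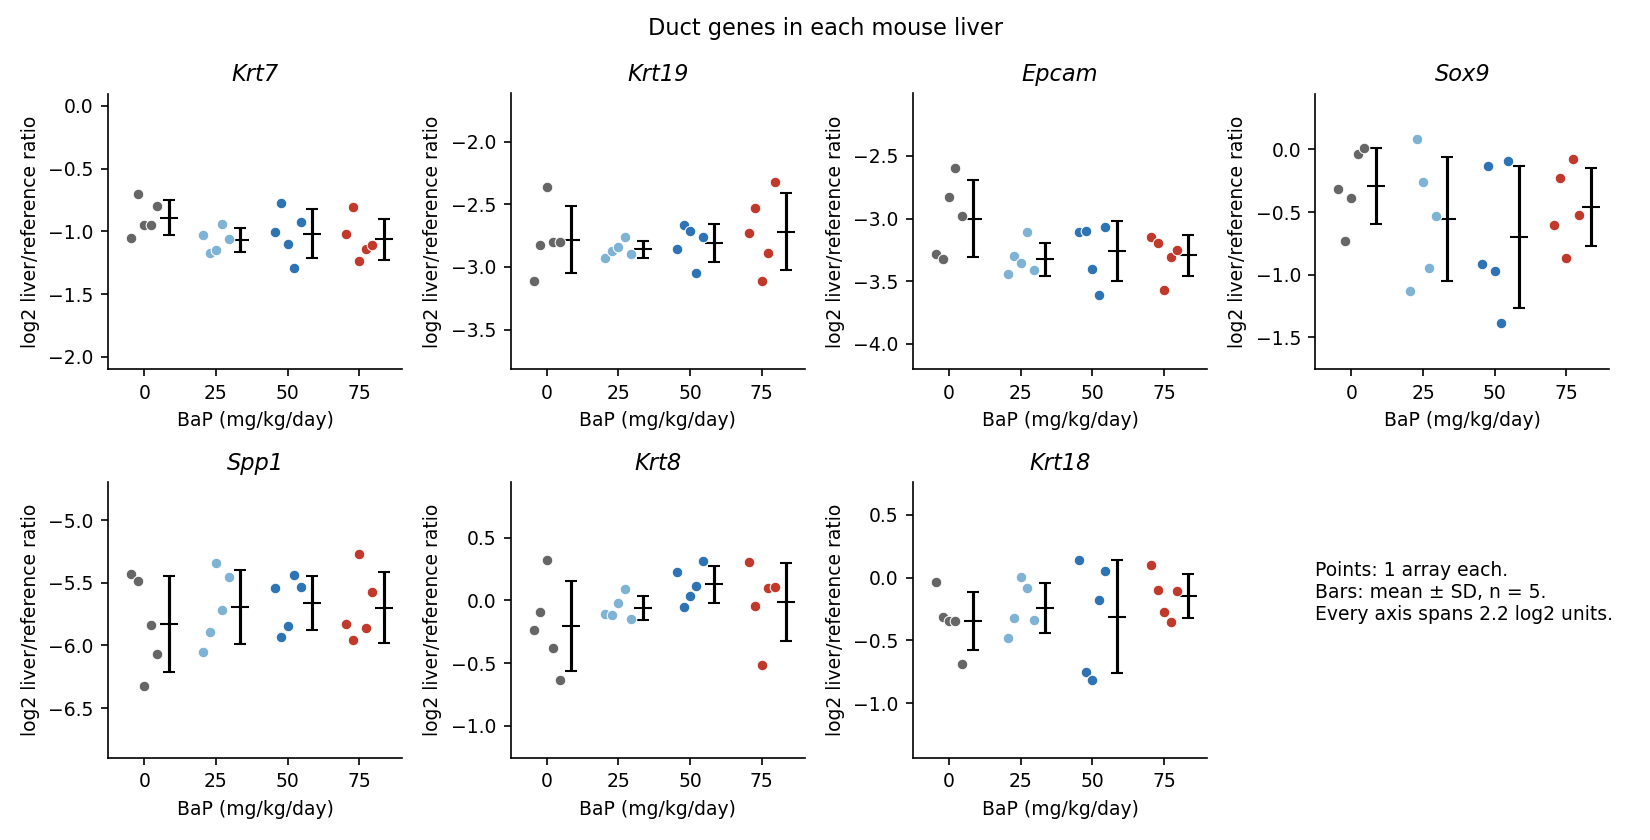
Log2 liver/reference ratio (vertical axes) of the 7 measured duct genes in each of 20 arrays by BaP dose in mg/kg/day (horizontal axes), brightest probe of each gene. Points are single mice and bars the mean ± SD of 5. In each panel the range at 75 mg/kg/day overlaps that of the controls.

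*Krt19*, the keratin most used to stain bile ducts, differed little between the groups. Its log2 ratio was -3.11, -2.83, -2.37, -2.80 and -2.80 in the controls and -2.73, -2.53, -3.11, -2.89 and -2.32 at 75 mg/kg/day, so the groups overlapped over nearly their whole range. The log2 change at 75 mg/kg/day was 0.06 (95% interval -0.22 to 0.35, adjusted p = 0.901), and it was -0.08 at 25 and -0.03 at 50 mg/kg/day. The 5 mice at 25 mg/kg/day were close to each other, between -2.93 and -2.76, while the SD was 0.27 in controls and 0.31 at 75 mg/kg/day.

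*Krt7*, the other keratin typical of ducts, was slightly lower at each dose without passing the test. Means were -0.89 ± 0.14 in controls and -1.06 ± 0.16 at 75 mg/kg/day (SD, n = 5), a log2 change of -0.17 (95% interval -0.39 to 0.04, adjusted p = 0.549). At 25 and 75 mg/kg/day 3 of 5 mice lay below all controls, and at 50 mg/kg/day 2 of 5 did. Within the 3 slides that held both controls and mice at 75 mg/kg/day, the difference was 0.14, -0.44 and 0.03. It was thus not of the same sign on every slide. This probe was the dimmest of those tested, and only 2 of 5 arrays at 50 mg/kg/day had it well above background.

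*Krt8* and *Krt18* encode the paired keratins of simple epithelia, which hepatocytes and duct cells both hold and which polymerise with each other. *Krt8* was -0.23, -0.09, 0.32, -0.38 and -0.63 in the controls and 0.31, -0.04, -0.52, 0.10 and 0.11 at 75 mg/kg/day, with neither group outside the other. Its log2 change was 0.14 at 25, 0.33 at 50 and 0.19 at 75 mg/kg/day (SE 0.15 each). At 50 mg/kg/day the unadjusted p was 0.043 and the adjusted p 0.730. The second *Krt8* probe gave 0.15, 0.28 and 0.18. *Krt18* had log2 changes of 0.10, 0.04 and 0.20 (SE 0.17 each), and its adjusted p was 0.703 at 75 mg/kg/day. In the group at 50 mg/kg/day it split into 3 mice between -0.18 and 0.14 and 2 mice at -0.75 and -0.82. These 2 shared 1 slide, and the other 3 lay on other slides. The shared slide also held control replicates 2 and 3, at -0.31 and -0.34, beside a control mean of -0.35. Whether the split came from mouse or slide was not tested. Of the variance of *Krt18*, 45.9% lay between slides and 8.02% between groups, each fitted alone. There were 6 slides and 4 groups, and not every slide held every group. The 2 shares thus cannot be added or set against each other.

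Of all pairs of members, *Krt8* and *Krt18* had the smallest p of co-variation between mice, and the 250 bases before the start of each gene are shown for that reason. They are taken from RefSeq promoter entries (GRCm38.p6), which were matched for 6 of the 9 genes (*Krt7*, *Epcam*, *Spp1*, *Cftr*, *Krt8* and *Krt18*). The array's probes were designed on an older build, and no position was converted. Capitals mark GCGTG, the core of the element bound by the aryl hydrocarbon receptor, the receptor for BaP, searched on both strands.
Krt8 (chr15:102004343-102004592, minus strand): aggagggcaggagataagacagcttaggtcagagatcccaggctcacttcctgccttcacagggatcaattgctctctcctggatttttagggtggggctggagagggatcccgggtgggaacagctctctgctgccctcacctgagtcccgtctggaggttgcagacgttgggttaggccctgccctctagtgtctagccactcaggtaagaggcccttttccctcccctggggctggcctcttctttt
Krt18 (chr15:102027966-102028215, plus strand): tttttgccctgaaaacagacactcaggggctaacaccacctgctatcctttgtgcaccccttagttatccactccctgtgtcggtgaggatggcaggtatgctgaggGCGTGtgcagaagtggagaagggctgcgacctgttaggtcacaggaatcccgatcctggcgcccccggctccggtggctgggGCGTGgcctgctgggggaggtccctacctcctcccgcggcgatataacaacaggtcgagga
The window of *Krt18* held GCGTG at 2 places, starting 143 and 61 bases before the gene's start, and that of *Krt8* held it at 0. These letters occur in 28.2% of all 32851 promoter windows of this length. The match is a description of the sequence only.

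*Epcam*, a cell adhesion molecule of duct cells and hepatic progenitors, was lower at each dose, though not past the threshold. The controls were -3.29, -3.33, -2.82, -2.60 and -2.98, and the mice at 75 mg/kg/day were -3.14, -3.20, -3.57, -3.31 and -3.25. Controls 1 and 2 lay among the exposed mice and the other 3 controls above them. The log2 change was -0.32 at 25 (adjusted p = 0.636), -0.26 at 50 (adjusted p = 0.770) and -0.29 at 75 mg/kg/day (95% interval -0.58 to -0.004, unadjusted p = 0.047, adjusted p = 0.440). On the 3 slides with both groups the difference at 75 mg/kg/day was -0.60, -0.59 and 0.14, so it was not of the same sign on every slide. The highest control, -2.60, was replicate 4, whose array stood apart. Without it the log2 change at 75 mg/kg/day was -0.19.

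*Sox9*, the transcription factor of the biliary lineage, varied widely between mice. The controls were -0.31, -0.73, -0.39, -0.04 and 0.01 and the mice at 75 mg/kg/day were -0.60, -0.23, -0.86, -0.08 and -0.52, largely overlapping. At 50 mg/kg/day values reached from -1.39 to -0.09, with 3 of 5 mice below all controls. The log2 change was -0.27 at 25, -0.41 at 50 and -0.17 at 75 mg/kg/day (SE 0.25 each), with adjusted p of 0.803, 0.782 and 0.848. The second present probe gave -0.24, -0.47 and -0.20, with an unadjusted p of 0.035 and an adjusted p of 0.727 at 50 mg/kg/day. Both probes moved together between mice of a group (r = 0.96 over 20 arrays, both read from the same RNA). The second probe was printed 10 times on each array, and its spots had a median SD of 0.06 log2 units within an array. The SD within groups, 0.35, holds the differences between mice together with those of labeling and hybridization, which cannot be told apart with 1 array a mouse.

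*Spp1* encodes osteopontin, a secreted phosphoprotein of duct cells and of some macrophages. It was -5.43, -5.49, -6.33, -5.84 and -6.07 in the controls and -5.83, -5.96, -5.27, -5.86 and -5.57 at 75 mg/kg/day, where 1 of 5 mice lay above all controls. The liver signal was thus far below that of the cell line pool in every mouse. The log2 change was 0.13 at 75 mg/kg/day (95% interval -0.24 to 0.50, adjusted p = 0.827), 0.14 at 25 and 0.17 at 50 mg/kg/day. Spots of the same probe had a median SD of 0.04 within an array, and the SD within groups over arrays was 0.30. The 3 differences within slides were -0.12, 0.80 and -0.40.

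With the slide as a block in the model 0 of the 7 were called at any dose, where no more than 62 of all probes were. *Krt19* then had a log2 change of 0.14 and *Epcam* of -0.30 at 75 mg/kg/day.

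A further 22 genes expressed in bile ducts, among them transporters, claudins and factors of duct development, were set beside the members. Of these, 18 were present. *Slc10a2*, the apical sodium-dependent bile acid transporter, and *Kcne3*, a potassium channel subunit, are among the transcripts that the study named from these arrays, so their values are a description. Their log2 changes at 75 mg/kg/day were 1.06 (SE 0.24) and 0.68 (SE 0.16), the largest of the 18. Of the other 16, 14 were higher and 2 lower, where 50.6% of all probes were higher, and the median was 0.14 log2 units, where all probes had 0.00. All 11 present hepatocyte markers were higher at this dose too, with a median of 0.39. Not all of the 16 were well above background throughout. *Slc5a1* was so on 1, *Muc1* on 4, *Prom1* on 9 and *Dcdc2a* on 10 of 20 arrays. The values of *Slc5a1* and *Muc1* thus lie near background. All of the 16 were read on the same arrays, so the counts over them are not 16 separate results. Which cells the difference in the 16 came from was not tested. None of the 16 was called, where 0.135% of all probes were, and 4 had an unadjusted p under 0.05, where 11.2% of all probes did. At 25 and 50 mg/kg/day 11 of 16 were higher and 0 called, where 0% of all probes were called. Of the 16, 2 and 3 had an unadjusted p under 0.05 at these doses, beside 7.81% and 6.7% of all probes. *Krt23*, a keratin seen in ductular reactions, was higher at the low doses, 0.93 at 25 and 0.75 at 50 mg/kg/day (adjusted p = 0.636 and 0.676), and 0.13 at 75 mg/kg/day.

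**Figure D4:**
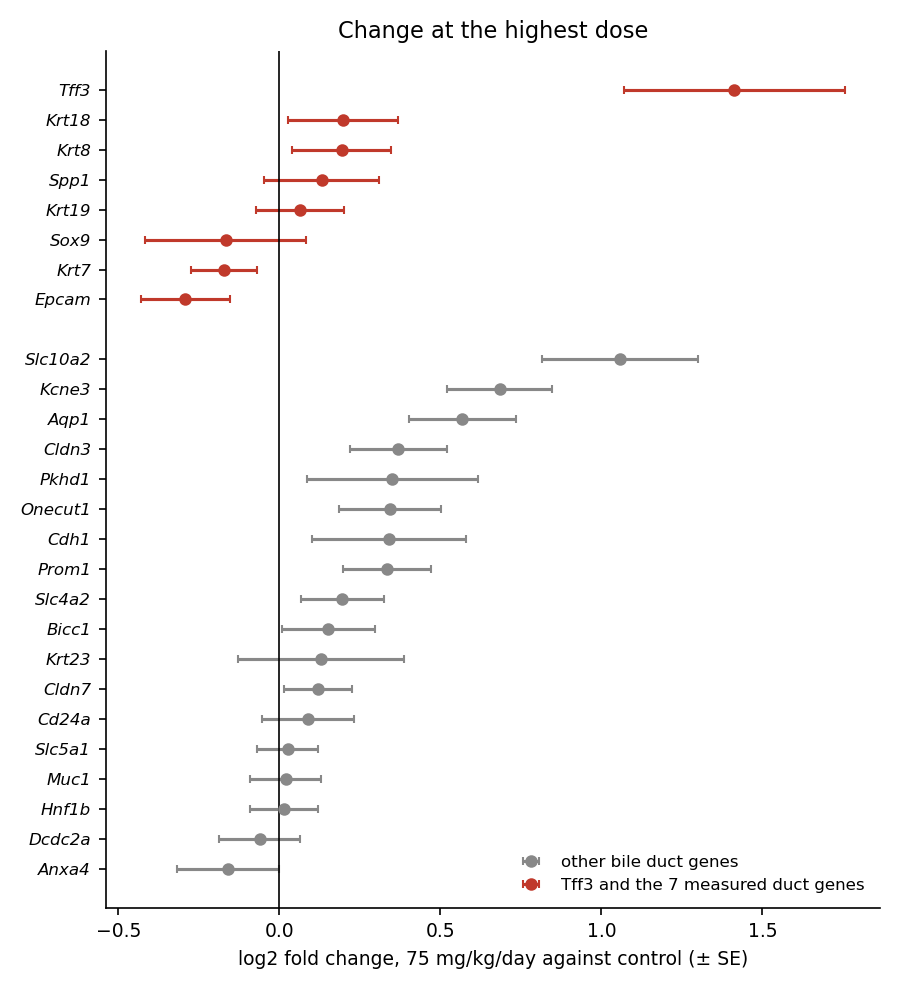
Log2 change at 75 mg/kg/day against control with its SE (horizontal axis) for *Tff3* and the 7 measured duct genes (red) and for 18 other bile duct genes (grey). *Tff3* lies at 1.41, the 7 duct genes between -0.29 and 0.20, and *Slc10a2* at 1.06.

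Notch and YAP signalling are the pathways best known for directing liver cells to a duct fate. Of 10 present Notch genes 0 were called at 75 mg/kg/day, where 0.135% of all probes were. Of the 10, 4 were higher and 6 lower, and 2 had an unadjusted p under 0.05, beside 11.2% of all probes. The receptor *Notch1* and its target *Heyl* had the largest values, both 0.65 (adjusted p = 0.288 and 0.250). Of 7 present YAP pathway genes 0 were called, with 2 higher and 5 lower and 0 at an unadjusted p under 0.05. The coactivator *Wwtr1* had 0.68 with an SE of 0.57 (adjusted p = 0.696), and the target *Ccn1* had -0.32 (adjusted p = 0.459). At 25 and 50 mg/kg/day 0 genes of both lists were called, where 0% of all probes were. With so few calls, these counts say little about the genes of both lists.

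Markers of other cells that could bring *Tff3* or duct transcripts into a liver sample were read on the same arrays. Of 9 goblet cell and gut epithelium markers found on the array, the goblet cell genes *Agr2* and *Clca1* and the intestinal factor *Cdx2* were well above background on 0 of 20 arrays and *Spink4* on 2. Of the 5 present ones 3 were higher and 2 lower at 75 mg/kg/day, and the mean log2 ratio of these 5 per array spanned 1.96 to 2.19 in controls and 1.85 to 2.10 at 75 mg/kg/day. *Lgals4* was lower by a log2 change of -0.54 (adjusted p = 0.281) and *Spdef* had -0.21 (adjusted p = 0.455). *Lgals4* and *Fabp2* were well above background on all 20 arrays, *Vil1* on 9, *Zg16* on 5 and *Spdef* on 1. The value of *Spdef* thus lies near background and gives no usable fold. Of 9 pancreas acinar markers 5 were present, and 0 were called at 75 mg/kg/day, where 0.135% of all probes were. The 5 had log2 changes between -0.02 (*Rnase1*) and 0.05 (*Ctrb1*) at that dose. Their mean per array spanned -0.07 to 0.30 in controls and 0.00 to 0.26 at 75 mg/kg/day, and *Pnlip* and *Cela2a* were well above background on 0 of 20.

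Hepatocyte markers were higher in the exposed groups, though 0 of 11 were called at any dose, where at most 0.135% of all probes were. With the highest dose all 11 had a positive log2 change, with a median of 0.39, and 7 had an unadjusted p under 0.05, where 50.6% of all probes were higher and 11.2% had such a p. *Ass1*, an enzyme of the urea cycle, had the largest at 0.73 (adjusted p = 0.194), and *Apoa1*, the main protein of high-density lipoprotein, had 0.49 (adjusted p = 0.431). The mean log2 ratio of the 11 per array spanned 4.03 to 5.25 in controls and 4.79 to 5.08 at 75 mg/kg/day, so the controls spread wider on both sides. The lowest control, at 4.03, was replicate 4, whose array stood apart, and the next lowest was 4.43. All 11 markers were read on the same arrays, so the counts over them are not 11 separate results. The median was 0.33 at 25 and 0.27 at 50 mg/kg/day. Of 8 macrophage markers, a second source of *Spp1*, 4 were higher and 4 lower at 75 mg/kg/day, and *Lyz2*, lysozyme, had the largest value with 0.80 (adjusted p = 0.246), followed by *Cd14*, a receptor for endotoxin, with -0.48 (adjusted p = 0.364). Their mean per array spanned -0.19 to 0.26 in controls and -0.16 to 0.24 at 75 mg/kg/day. Of 6 lung epithelium markers 3 were present, with log2 changes between 0.04 and 0.15, *Ager* at 0.15 and *Sftpa1* at 0.05. Of these 3 markers 0 were called, where 0.135% of all probes were. The part of any of these cells in the values of the members was not tested.

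Whether the members rose and fell together from mouse to mouse was read after removing the group means, over 28 pairs of the 8 measured genes. None of the 28 pairs passed after Benjamini-Hochberg adjustment (permutation test within groups, 100000 resamples, two-sided). *Krt8* and *Krt18* had r = 0.49 and rho = 0.65 (permutation p = 0.0128 and 0.00364, adjusted p = 0.160 and 0.0620). *Krt19* and *Epcam* had r = 0.57 and rho = 0.64 (adjusted p = 0.160 and 0.0620). *Epcam* and *Sox9* had r = 0.51 (rho = 0.44, adjusted p = 0.160 and 0.241). Without the 2 arrays farthest from the median of the first gene, r was 0.64, 0.62 and 0.40 for these 3 pairs, and with slide means removed too it was 0.77, 0.67 and 0.52.

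*Tff3* had r = 0.44 with *Krt19* (rho = 0.49, permutation p = 0.0578 and 0.0364, adjusted p = 0.231 and 0.229) and r = 0.41 with *Epcam* (rho = 0.45, adjusted p = 0.246 and 0.229). Its r was 0.39 with *Krt18*, 0.33 with *Sox9*, 0.28 with *Krt8*, 0.04 with *Spp1* and 0.02 with *Krt7*. With slide means removed too, the r of *Tff3* was 0.56 with *Krt19*, *Epcam* and *Krt18*, 0.52 with *Sox9* and 0.39 with *Krt8*. It was -0.07 with *Krt7* and -0.003 with *Spp1*. With the deposited ratios the r of *Tff3* was 0.39 with *Krt19*, 0.27 with *Epcam*, 0.32 with *Krt18* and 0.30 with *Sox9*. These recomputed values carry no test. *Spp1* ran against *Krt19* (r = -0.54, rho = -0.50, permutation adjusted p = 0.160 and 0.229) and against *Epcam* (r = -0.50, rho = -0.44, adjusted p = 0.231 and 0.247). Over all pairs r lay between -0.54 and 0.57, and 19 of 28 were positive. With the deposited ratios the r of *Krt7* was 0.67 with *Krt19*, 0.65 with *Epcam*, -0.63 with *Spp1* and 0.44 with *Krt8*, against 0.44, 0.42, -0.35 and 0.09 here.

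**Figure D5:**
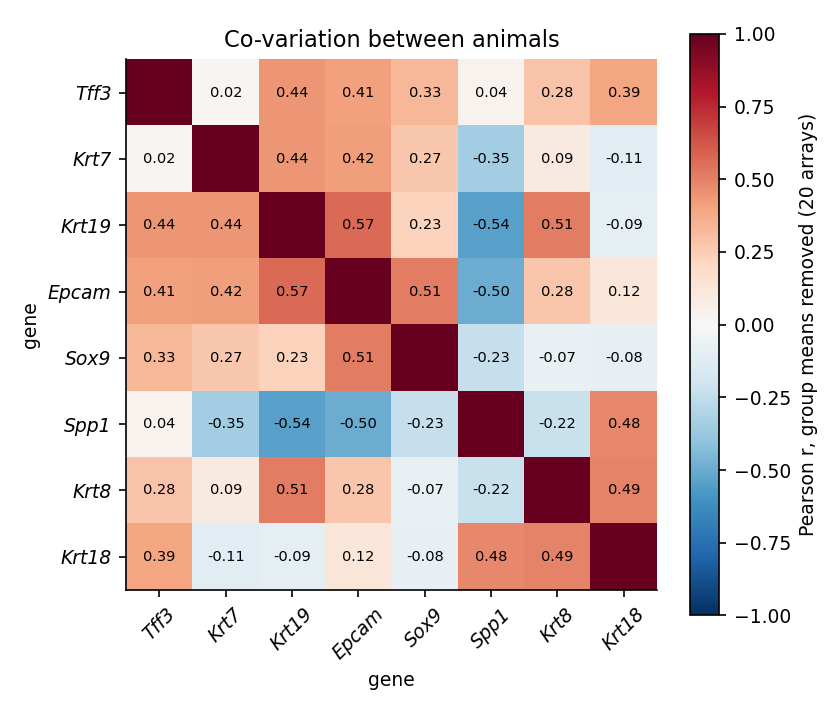
Pearson's r between the log2 ratios of 8 genes over 20 arrays after removing group means (color scale and printed values, genes on both axes). *Krt19* with *Epcam* has the highest r, 0.57, and *Spp1* is negative with *Krt19*, -0.54, and *Epcam*, -0.50.

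The genes most like a member between mice of the same group were sought among 12808 others. For *Tff3* these were *Pum2* (r = 0.77), *Dsg2* (0.76) and *Fst* (0.76), for *Krt19* they were *Timm13* (0.78), *Lsm12* (0.75) and *Igsf8* (0.75), and for *Spp1* they were *Chfr* (0.88), *Ly6k* (0.87) and *Acsm3* (0.86). All 9 were picked as the highest of many values over 20 arrays that share a reference and a normalization, and so they are a description. None was called at 75 mg/kg/day, where 0.135% of all probes were. The log2 changes of *Pum2*, *Dsg2* and *Fst* at this dose were 0.27, 0.29 and 0.29.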

How the data were processed

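The median spot and local background brightness of both channels are an intensity on a linear scale, which the authors extracted with the scanner's Feature Extraction software and deposited without normalization. The processed signals in the same files are an intensity that the software had background subtracted and dye normalized, as deposited by the authors. A table of LOWESS-normalized log2 values, liver relative to reference, was also deposited by the authors. Deposited marks flagged spots for outlying, saturated (0 spots) and well above background signal. 1 sample was removed by the authors without being named, so all 20 were kept here.

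Background correction of the medians was by normexp (offset 50) and normalization by loess within each array, control spots and outliers were left out, and spots of a probe were averaged (43379 spots, 41174 probes). Against the deposited log2 values, r was 0.994 to 0.996 per array. The presence limit was the mean plus 3 SDs, both trimmed (5%), of 153 negative control spots, passed on 4 of 5 arrays of some group by 27346 probes. R 4.3.3 and limma 3.58.1 gave 1 model of the 4 groups and a second with dose as a number, and permutations ran in Python with numpy. Fits and permutations were tested on simulated data. 23374 probes were named by accession through RefSeq (GRCm38.p6). A gene is given by its present probe of highest mean intensity. Named are all members, genes of each other list that were called or had the 2 largest changes at 75 mg/kg/day, and the 3 genes most like *Tff3*, *Krt19* and *Spp1*. Other genes of those lists were named after their values were seen. The members and lists were chosen with earlier results of these data known. In the list values *Ass1* and *Cldn3* lack 1 array each. Samples were separate mice, and the number of arrays limits the precision. Alternatives were other signals and normalizations, no presence filter, slide as a block, 1 dose with its controls alone, and leaving out each array. The liver channel of the processed signals alone was added after seeing the data.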

Additional observations from a re-analysis of the deposited data

Results flagged for a closer look

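In the reference channel of the *Tff3* spot, a channel that the comparisons do not use by itself, the level was 1.24 log2 units higher at 75 mg/kg/day than in controls, although the same reference RNA was used on every array. 2 of 5 arrays at 75 mg/kg/day lay above all controls there and 3 of 5 did so in the liver channel. The cause was not tested.

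Among the values of the members, 52 sets of 5 mice (13 probes in 4 groups) were searched for a single mouse far from the other 4, and 2 were found, where chance would give about 2.6. *Tff3* in replicate 19 at 75 mg/kg/day had a log2 ratio of 3.23, below the other 4 mice, and without it the log2 fold change was 1.66. The third *Sox9* probe had 0.23 in control replicate 3, above the other controls, and was not well above background on 19 of 20 arrays.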

How the results depend on the processing

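The count of 0 called duct genes held in each contrast with control under all 29 alternatives, including without control replicate 4. In any of these, at most 2, 6 and 72 of all probes were called at 25, 50 and 75 mg/kg/day. With so few calls, a count of 0 of 7 says little about these genes. *Tff3* at 75 mg/kg/day was 1.41. It was 0.48 with scanner-processed signals and otherwise lay between 1.29 and 1.73. Leaving out an array at 25 or 50 mg/kg/day, dropping the presence filter or keeping that dose with its controls alone cannot change this value. All settings reuse the arrays on which *Tff3* was chosen, so the range is a description and carries no test. Replicate numbers run from 1 to 20, are not shared between groups and pair no samples, and the slide, which groups share, was the block instead.

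The counts over all probes moved more. At 75 mg/kg/day, 37 probes became 62 with scanner-processed signals, 58 with slide as a fixed and 62 as a random block, 5 with control and that dose alone, and 25 to 72 when single arrays were left out, 72 being without replicate 19. At 50 mg/kg/day, 0 became 4 with scanner-processed signals, 3 with the liver channel alone from these signals, 3 and 6 with slide as a fixed and random block, and 0 to 1 without single arrays. At 25 mg/kg/day it was 0 to 2 without single arrays, 2 being without control replicate 3. The trend, 43 probes, had 70 and 83 with the liver channel alone (quantile normalized and processed), 95 and 109 with slide as a fixed and random block, and 28 to 59 without single arrays, 28 being without replicate 17. Causes were not tested.

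The 920 recomputed changes of members include many that could not move, so the share that reversed is not a rate. Those come from leaving out an array outside the contrast, dropping the presence filter or keeping a dose with its controls alone. Of the 920, 34 took the other sign, none of them called. With scanner-processed signals these were *Krt19* at 50 mg/kg/day (0.015) and, from 25 to 50 mg/kg/day, *Krt7* (-0.15), *Spp1* (-0.051) and *Krt18* (0.00035). With the authors' ratios they were *Krt19* at 50 mg/kg/day (0.027) and *Spp1* from 25 to 50 (-0.043). With the liver channel quantile normalized they were *Spp1* at 50 (-0.016) and 75 (-0.0029), *Krt19* at 75 (-0.23), and from 25 to 50 *Krt7* (-0.13), *Spp1* (-0.047) and *Krt18* (0.10). With the processed liver channel they were *Krt19* at 75 (-0.14) and from 25 to 50 *Krt7* (-0.29) and *Krt18* (0.16). With slide as a fixed block, from 25 to 50, they were *Krt7* (-0.029), *Krt19* (-0.026) and *Krt18* (0.0054). Without single arrays *Krt19* ran from -0.16 to 0.025 at 25, -0.11 to 0.077 at 50 and -0.036 to 0.17 at 75 mg/kg/day, and *Krt18* from -0.077 to 0.16 at 50. From 25 to 50 the ranges were -0.011 to 0.12 for *Krt7*, -0.18 to 0.061 for *Krt18*, -0.29 to 0.031 for *Sox9* and -0.055 to 0.12 for *Spp1*.

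Of 84 recomputed correlations between members 13 moved by more than 0.2, by up to 0.53. That was *Spp1* with *Krt8*, at 0.31 without the 2 farthest arrays, and *Krt7* with *Krt8* moved from 0.09 to 0.44 with the deposited ratios.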
